A study of Mus musculus with 16 samples.

Results

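The ionotropic glutamate receptors of the AMPA and NMDA type are described here in the dentate gyrus of aged mice through 10 of their subunit genes. These are Gria1, Gria2, Gria3 and Gria4, which encode the 4 AMPA receptor subunits, and Grin1, Grin2a, Grin2b, Grin2c, Grin2d and Grin3a, which encode 6 NMDA receptor subunits. They were chosen by gene name from the 24421 gene names of the abundance tables, and each of the 10 had a single entry in every library. Total RNA of the dentate gyrus was sequenced in 16 libraries from 1-year-old male C57BL/6 mice, with 4 libraries in each of 4 groups. Each library pooled the dentate gyri of a pair of mice, so single animals cannot be compared and the p-values below measure the spread between pools. The groups were p16 WT CTL (p16Ink4a +/+, sedentary, replicates 1 to 4), p16 KO CTL (p16Ink4a -/-, sedentary, replicates 5 to 8), p16 WT RUN (p16Ink4a +/+, 12 days of voluntary running, replicates 9 to 12) and p16 KO RUN (p16Ink4a -/-, 12 days of running, replicates 13 to 16). The knockout is constitutive and removes p16Ink4a, an inhibitor of cell cycle kinases, in every cell type, while the overlapping p19Arf gene stays functional. The line was made in FVB mice and bred to C57BL/6.

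Glutamate is the main excitatory transmitter of the hippocampus. AMPA receptors are tetramers that open within milliseconds of glutamate binding and carry most of the fast excitatory current, and a receptor without edited GluA2, the product of Gria2, lets calcium through. NMDA receptors need glutamate, a co-agonist (glycine or D-serine) and depolarization to open, and pair the obligatory GluN1 subunit, the product of Grin1, with GluN2 subunits that set the speed of closing, or with GluN3 subunits. Their calcium entry is needed for long-term potentiation at the perforant path synapses onto granule neurons, and it also acts on the survival of adult-born granule neurons.

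The 10 genes share one stretch of 7 amino acids, within the motif at the channel gate in the third membrane segment. It is shown because it is the part common to all members that the choice by name did not use. The coding bases below are those of the GENCODE vM21 transcripts on GRCm38 (mm10), written 5′ to 3′ on the coding strand, with capitals at the positions where a gene differs from the commonest base of the 10. At the sixth base a and T are equally common, with 4 genes each, and a was left in lower case.

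Gria1 (chr11:57283574-57283594, plus strand, exon 12): tacacagccaacctggctgcc
Gria2 (chr3:80702572-80702592, minus strand, exon 12): tacacGgcTaacTtAgctgcc
Gria3 (chrX:41620861-41620881, plus strand, exon 12): tacacTgcAaacctTgctgcT
Gria4 (chr9:4462020-4462040, minus strand, exon 13): tacacTgcTaaTctggctgcA
Grin1 (chr2:25297202-25297222, minus strand, exon 14): tacacTgccaacctggcAgcc
Grin2a (chr16:9653450-9653470, minus strand, exon 8): tacacagccaacctggctgcc
Grin2b (chr6:135772247-135772267, minus strand, exon 10): tacacTgccaacTtAgcCgcc
Grin2c (chr11:115253752-115253772, minus strand, exon 9): tacacGgccaaTctggcAgcc
Grin2d (chr7:45854282-45854302, minus strand, exon 8): taTacagccaaTctggctgcc
Grin3a (chr4:49770473-49770493, minus strand, exon 3): tacacagcGaacTtggctgcT

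Of these 21 bases, 13 were the same in all 10 genes, and Gria1 and Grin2a were identical over the whole stretch. Outside it the sequences differ widely. Over the 45 pairs of members, the longest run of coding bases shared without a mismatch was 37 bases, between Gria3 and Gria4. The encoded AMPA subunits were 68.2% to 73.6% identical in their 6 pairs, the GluN2 subunits 45.8% to 56.6% in theirs, and an AMPA and an NMDA subunit 26.0% to 30.9% in 24 pairs.

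The AMPA genes are also shown at their pore codon, where Gria2 transcripts are recoded from glutamine to arginine by RNA editing in the brain, which closes the receptor to calcium. The genomic codon is in capitals within 30 bases.

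Gria1 (chr11:57243082-57243111, plus strand, exon 11): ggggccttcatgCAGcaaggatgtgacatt
Gria2 (chr3:80706896-80706925, minus strand, exon 11): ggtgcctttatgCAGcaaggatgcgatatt
Gria3 (chrX:41610253-41610282, plus strand, exon 11): ggtgcttttatgCAGcaaggatgtgatatt
Gria4 (chr9:4464122-4464151, minus strand, exon 12): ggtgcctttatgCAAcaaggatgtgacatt

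The codon is a glutamine codon in all 4 genes, spelled CAG in Gria1, Gria2 and Gria3 and CAA in Gria4. The tables hold 1 abundance per gene, so the edited share of Gria2 transcripts and the splice forms of any member were not analysed here.

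Levels are given as scaled TPM, transcript abundances corrected for gene length and brought to a common scale across libraries, so that genes can be compared with each other. Fitted differences are log2 values of scaled TPM + 0.1, tested with limma over the 17317 genes whose mean TPM reached 0.1. A gene is said to have passed the test at an unadjusted p under 0.05, the threshold of the study's own comparisons. P-values adjusted by Benjamini-Hochberg over all 17317 genes are given beside it, and none of the 10 members had an adjusted p under 0.05 in any comparison with all its libraries. The comparisons carry the study's names, Set A for p16 KO RUN against p16 KO CTL, Set B for p16 KO CTL against p16 WT CTL, Set C for p16 WT RUN against p16 WT CTL, Set D for p16 KO RUN against p16 WT CTL and Set E for p16 KO RUN against p16 WT RUN. They share groups: p16 KO RUN is in Sets A, D and E and p16 WT CTL in Sets B, C and D, whereas Sets A and C have no library in common.

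Some facts of the libraries touch the results. All 10 granule neuron markers were present, from 24.4 TPM for Maml2 to 390 TPM for C1ql2, but the dissections also held other cells. In p16 KO CTL replicate 8 the 8 markers of CA1 pyramidal neurons summed to 365 TPM, against 94.1 to 208 TPM elsewhere, and the granule neuron markers to 736 TPM, their lowest sum. In 3 sedentary libraries, p16 WT CTL replicate 2 and p16 KO CTL replicates 6 and 7, the summed level of 9 nuclear long noncoding RNAs was 692 to 1205 TPM against 1961 to 2627 TPM in the other 13. In the same 3 libraries 8 nuclear-encoded mitochondrial RNAs summed to 6199 to 6944 TPM against 4822 to 5862 TPM, 8 microglia markers to 595 to 752 TPM against 435 to 538 TPM, and 6 endothelial markers to 67.1 to 95.8 TPM against 107 to 159 TPM. These 3 libraries are called low in nuclear RNA below. Cdkn2a, the gene that encodes p16Ink4a, was listed at 0 in 8 of 16 libraries and reached at most 0.613 TPM in wild-type and 0.407 TPM in knockout libraries. Its entry also covers p19Arf transcripts, so it checks no label. In bulk tissue fewer cells of a type and less RNA per cell cannot be told apart.

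The mean levels of the 10 genes spanned 9.88 to 749 TPM. Gria1 was the highest, with a mean of 749 TPM over 16 libraries, which placed it at rank 165 of all gene names. Gria2 followed with 427 TPM and Grin1 with 405 TPM. Gria3 had a mean of 163 TPM, Grin2a 80.3 TPM and Grin2b 52.1 TPM. These 6 are the subunits known for mature principal neurons of the forebrain. Gria4, best known from interneurons and developing neurons, had a mean of 36.2 TPM, and Grin2c, known from cerebellar granule cells and astrocytes, 34.5 TPM. Grin3a, a subunit of young synapses, had 14.1 TPM, and Grin2d, known from interneurons and the brainstem, had 9.88 TPM, which still placed it at rank 10126 of 24421. The lowest coverage of any member in any library was 19.2 per base, for Grin2d, and the highest 2938 per base, for Gria1. The files give no read counts, so no counting interval can be set on a value.

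Not all neighbours in this order were separate. Gria2 was above Grin1 in 12 of 16 libraries, Grin2b above Gria4 in 13 and Gria4 above Grin2c in 8, and the ranges of these pairs overlapped. Grin2a was above Grin2b in 16 of 16 libraries, although their ranges over all libraries overlapped. The other neighbours did not overlap in any library. Gria1 was the steadiest member, with a coefficient of variation of 4.82% over the 16 libraries, and Grin2b and Grin2a the most variable, with 21.5% and 17.5%. The median over 14438 genes whose mean reached 1 TPM, which were not matched to the members by level, was 11.9%.

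**Figure D1:**
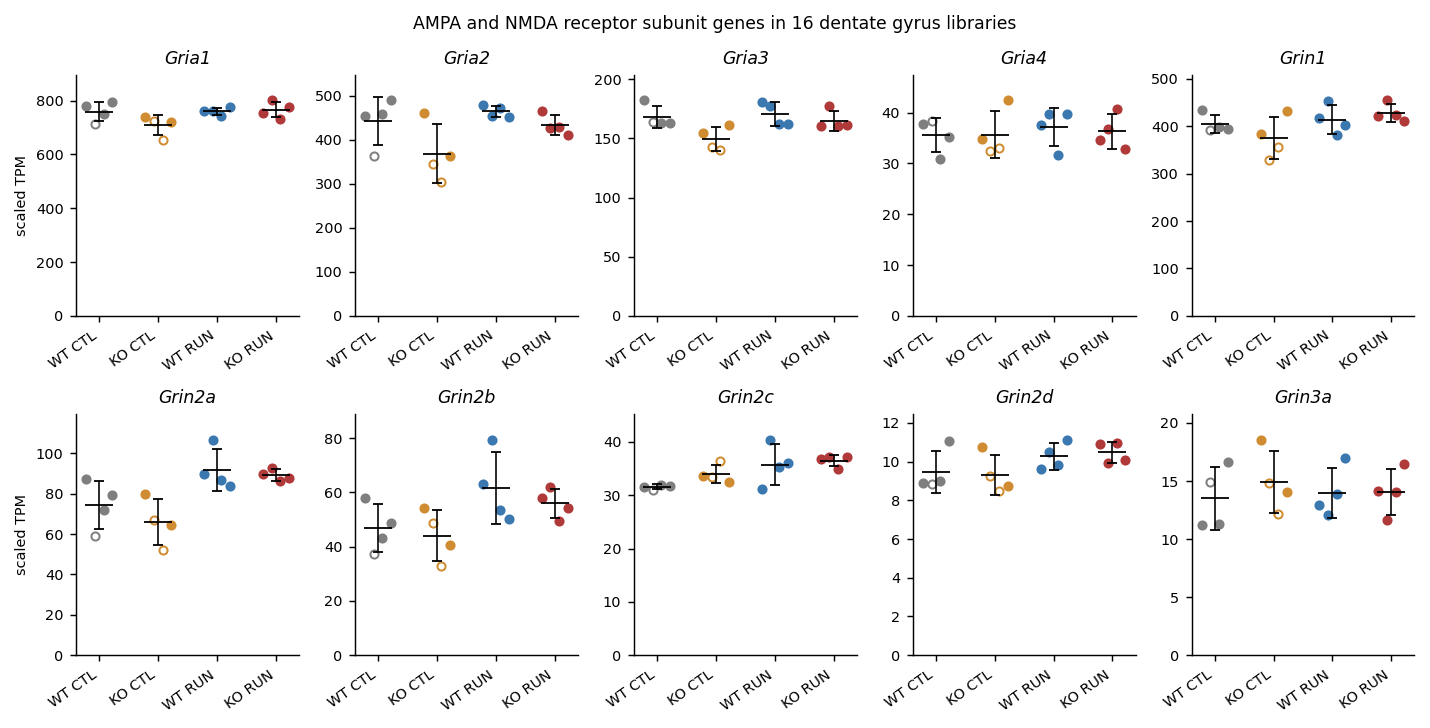
Scaled TPM of the 10 subunit genes in each library, 1 panel per gene, with the 4 groups along the horizontal axis. Points are libraries, bars are the mean ± SD of 4 libraries, and open circles are the 3 sedentary libraries of lowest nuclear RNA. In the Grin2a panel the 4 p16 KO RUN libraries (86.1 to 92.8 TPM) lie above all 4 p16 KO CTL libraries (52.3 to 79.8 TPM).

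Set A asks what running does in mice without p16. The GluN2 genes Grin2a and Grin2b were higher in running knockout mice, as was Grin1 by less, while Gria4 and Grin3a hardly differed. Of the 10 members, 3 passed the test as higher and 0 as lower, while 7 passed with TPM as deposited and 5 with quantile normalization, in both cases with Gria1 and Gria3 among them, and 1 (Grin2a) without a variance trend. Among all genes tested, 10.7% passed as higher and 7.74% as lower, and 0.0173% had an adjusted p under 0.05. The split was 1856 higher and 1340 lower, 2500 and 709 with TPM as deposited, and 1537 and 1541 with quantile normalization. The median difference of the members was 0.16 on the log2 scale, against 0.02 over all genes. Above 0 were 9 of 10 members and 53.2% of all genes.

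Grin2a encodes GluN2A, the subunit that replaces GluN2B in part as synapses mature and makes the NMDA current short. In p16 KO CTL its level was 79.8, 66.9, 52.3 and 64.5 TPM, and in p16 KO RUN 89.7, 92.8, 86.1 and 88.0 TPM. Every running library was above every sedentary one, and the running libraries lay close together. The means were 89.1 ± 2.85 and 65.9 ± 11.3 TPM (SD, n = 4 each), a 1.37-fold difference. The log2 difference was 0.45 with a standard error of 0.11, an unadjusted limma p of 0.00275 and a Benjamini-Hochberg adjusted p of 0.158. The two-sided exact permutation test gave p = 0.0286, the smallest that 4 against 4 libraries allow. Among all genes tested, 5.83% had no overlap with the running group higher, and Grin2a was the 1 member of 10 that did.

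The difference in Grin2a kept its direction and its p under 0.05 in 8 of 8 fits that left out 1 library, with log2 values from 0.35 to 0.55. Without p16 KO CTL replicate 5 its adjusted p was 0.0435. The 3 libraries low in nuclear RNA touch it, since p16 KO CTL replicate 7 holds the lowest Grin2a level of the series. Without p16 KO CTL replicates 6 and 7 the log2 difference of Grin2a was 0.31 (limma, unadjusted p = 0.0104, adjusted p = 0.487). Without replicate 8 as well, 1 sedentary knockout library remained, so that the spread came from p16 KO RUN alone, and the difference was 0.16.

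Grin2b encodes GluN2B, the subunit of slowly closing NMDA receptors, which also binds the kinase CaMKII. Its level was 54.3, 48.7, 32.7 and 40.5 TPM in p16 KO CTL and 58.1, 61.9, 49.4 and 54.4 TPM in p16 KO RUN. The groups overlapped only in that p16 KO CTL replicate 5 lay above p16 KO RUN replicate 15. The means were 55.9 ± 5.35 and 44.1 ± 9.45 TPM (SD, n = 4 each). On the log2 scale Grin2b differed by 0.36 with a standard error of 0.15 (limma, unadjusted p = 0.0359, adjusted p = 0.251, exact permutation p = 0.0571). It passed the test in 3 of 8 fits that left out 1 library, and missed it without p16 KO CTL replicate 7 (log2 0.23) or replicate 8 (0.33) and without p16 KO RUN replicate 13 (0.34), 14 (0.31) or 16 (0.38). Without p16 KO CTL replicates 6 and 7 it was 0.25 (limma, unadjusted p = 0.112).

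Grin1 encodes GluN1, without which no NMDA receptor reaches the synapse. Its level was 383, 328, 357 and 432 TPM in p16 KO CTL and 423, 454, 424 and 412 TPM in p16 KO RUN. A single sedentary library, p16 KO CTL replicate 8, lay within the range of the running group, and the other 3 lay below it. The log2 difference of Grin1 was 0.20 with a standard error of 0.08 (limma, unadjusted p = 0.0441, adjusted p = 0.263, exact permutation p = 0.114). Of the fits that left out 1 library, 1 of 8 kept an unadjusted p under 0.05, the one without p16 KO CTL replicate 8 (0.27), and the lowest log2 value was 0.14. Without p16 KO CTL replicates 6 and 7 it was 0.07 (limma, unadjusted p = 0.334). Reads of Grin1 (chr2:25291177-25319187, minus strand) may also include those of Grin1os and Lrrc26 on the opposite strand, since it is not given whether strand was used in the abundance step. Grin1os had a mean of 13.2 TPM and Lrrc26 of 5.93 TPM.

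In the fit of its 8 libraries, at the scaling and pseudocount used, no AMPA gene passed the test in Set A. Gria1 encodes GluA1, the subunit added to synapses during potentiation. It had 738, 726, 655 and 719 TPM in p16 KO CTL and 756, 801, 734 and 776 TPM in p16 KO RUN, with a log2 difference of 0.11 (limma, unadjusted p = 0.104). Gria2, which encodes the calcium-blocking GluA2, had 461, 346, 304 and 364 TPM in p16 KO CTL and 465, 426, 429 and 412 TPM in p16 KO RUN. Its 3 lowest levels in the series were those of the 3 libraries low in nuclear RNA, the highest of them level with p16 KO CTL replicate 8 at 364 TPM. For Gria2 the log2 difference was 0.25 with a 95% interval of -0.01 to 0.51 (limma, unadjusted p = 0.0592). Gria3, which encodes the GluA3 partner of GluA2, had a log2 difference of 0.14 (limma, unadjusted p = 0.0513). When 1 library was left out, Gria2 ran from 0.16 to 0.36 and passed the test in 1 of 8 fits. Gria3 ran from 0.11 to 0.18 and passed in 2 of 8. Gria4 differed by 0.03 with an interval of -0.20 to 0.26. Of the remaining NMDA genes, Grin2c differed by 0.10, Grin2d by 0.17 and Grin3a by -0.08, none of them past the test. Grin2c and Grin2d each passed in 1 of 8 fits that left out 1 library.

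The nuclear RNA values move with Set A. The 9 nuclear long noncoding RNAs summed to 692 to 2324 TPM in p16 KO CTL and to 2127 to 2449 TPM in p16 KO RUN, and 8 of 10 members had their lowest level of the series in one of the 3 libraries low in these RNAs. The astrocyte markers, 8 genes all detected, summed to 1352 to 2192 TPM in p16 KO CTL and 1386 to 1642 TPM in p16 KO RUN. The oligodendrocyte markers, 8 genes all detected, summed to 648 to 1102 TPM in p16 KO CTL, with the highest sum of the series in replicate 8, and to 565 to 694 TPM in p16 KO RUN. The part of these in the receptor values was not tested. Without p16 KO CTL replicates 6 and 7, an alternative chosen after seeing the data, 1 member passed the test in Set A, and without replicate 8 too, 0 did. Over all 17317 genes the number that passed in either direction went from 3196 to 1470 and 936 in the same fits.

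**Figure D2:**
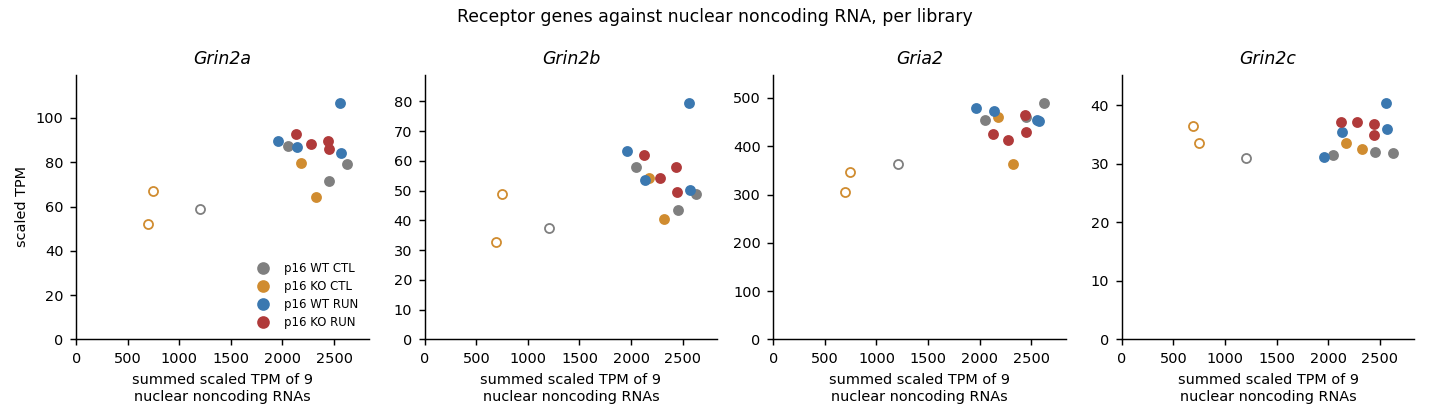
Scaled TPM of Grin2a, Grin2b, Gria2 and Grin2c against the summed scaled TPM of 9 nuclear long noncoding RNAs, 1 point per library, coloured by group, with open circles for the 3 sedentary libraries of lowest nuclear RNA. These 3 stand at 692 to 1205 TPM on the horizontal axis, apart from the other 13 at 1961 to 2627 TPM, and hold the lowest Gria2 values of the series.

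Set C asks the same of running in wild-type mice, with libraries that none of the Set A values use. Grin2a and Grin2b passed the test here too, and no AMPA gene did. Of the 10 members, 2 passed as higher (3 with TPM as deposited, which adds Grin2c, and 0 with no filter or without a variance trend) and 0 as lower, where 2.69% of all genes passed as higher and 2.13% as lower. The share with an adjusted p under 0.05 was 0% of all genes (0 of 17317, with 833 at an unadjusted p under 0.05). These 833 were 465 higher and 368 lower. Their number became 531 (288 and 243) when p16 WT RUN replicate 10 was left out. All 10 members were above 0 on the log2 scale, as were 51.2% of all genes, with a median of 0.07 against 0.00 over all genes. Gria1, Gria2, Gria3, Gria4, Grin1 and Grin3a fell below 0 in at least 1 fit that left out 1 library.

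In p16 WT CTL Grin2a stood at 87.5, 59.0, 71.7 and 79.3 TPM, and in p16 WT RUN at 89.7, 107, 86.8 and 84.0 TPM. The groups overlapped through p16 WT CTL replicate 1, and the lowest value came from p16 WT CTL replicate 2, one of the libraries low in nuclear RNA. In that library the granule neuron markers summed to 951 TPM, against 1281 to 1824 TPM in the other p16 WT CTL libraries. Its markers of GABAergic interneurons summed to 1666 TPM, against 1010 to 1274 TPM. The mean Grin2a levels were 91.8 ± 10.2 TPM in p16 WT RUN and 74.4 ± 12.1 TPM in p16 WT CTL (SD, n = 4 each). The log2 difference of Grin2a was 0.31 with a standard error of 0.12 (limma, unadjusted p = 0.0314, adjusted p = 0.985, exact permutation p = 0.0857). It passed the test in 4 of 8 fits that left out 1 library, and missed it without p16 WT CTL replicate 2 (log2 0.21, limma, unadjusted p = 0.0693) or 3 (0.30) and without p16 WT RUN replicate 9 (0.32) or 10 (0.24).

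Grin2b stood at 58.0, 37.4, 43.3 and 48.8 TPM in p16 WT CTL and at 63.3, 79.4, 53.4 and 50.1 TPM in p16 WT RUN. The running group reached the highest value of the series, in replicate 10, and its lower libraries overlapped the sedentary group. Replicate 10 also held the highest Grin2a level. Its CA1 markers summed to 208 TPM against 126 to 150 TPM in the other p16 WT RUN libraries. Its oligodendrocyte markers summed to 920 TPM against 576 to 697 TPM, and its granule neuron markers to 1092 TPM, the lowest of the running libraries. The part of these marker sums in the receptor values was not tested. On the log2 scale Grin2b differed by 0.39 with a standard error of 0.17 (limma, unadjusted p = 0.0454, adjusted p = 0.985, exact permutation p = 0.114). It passed in 3 of 8 fits that left out 1 library, and missed the threshold without p16 WT CTL replicate 2 (log2 0.28), 3 (0.35) or 4 (0.41) and without p16 WT RUN replicate 9 (0.37) or 10 (0.26).

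Grin1 did not share this in wild-type mice, with 433, 392, 397 and 395 TPM in p16 WT CTL and 417, 453, 382 and 403 TPM in p16 WT RUN, a log2 difference of 0.03 with an interval of -0.12 to 0.18. Gria1 stood at 759 ± 36.4 TPM in p16 WT CTL and 760 ± 13.9 TPM in p16 WT RUN (SD, n = 4 each). Its log2 difference was 0.00 with an interval of -0.12 to 0.13, the narrowest interval of Set C with that of Gria3 (-0.12 to 0.16). Gria2 differed by 0.08 and Gria4 by 0.06. Grin2c differed by 0.17 (limma, unadjusted p = 0.0609), Grin2d by 0.12 and Grin3a by 0.06. Without p16 WT CTL replicate 2, the library low in nuclear RNA, 0 of 10 members passed the test in Set C, while over all 17317 genes the number that passed in either direction went from 833 to 1018.

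**Figure D3:**
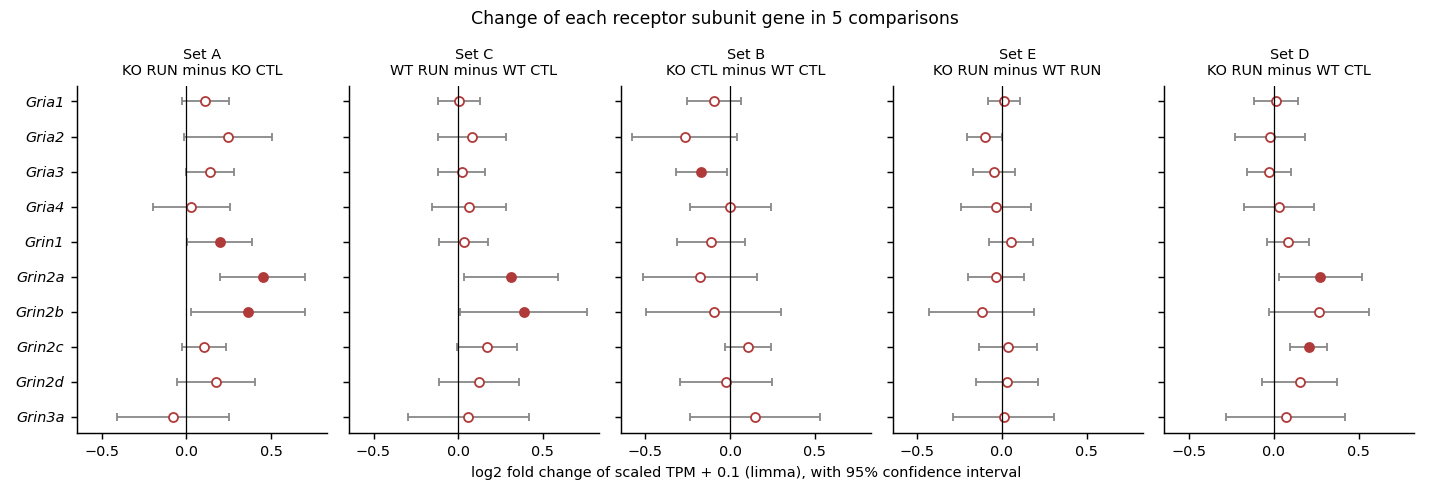
Fitted log2 difference of scaled TPM + 0.1 for each subunit gene (rows) in Sets A, C, B, E and D (panels), each with 8 libraries. Bars are 95% confidence intervals, and filled points have an unadjusted p under 0.05. The filled points are Grin1, Grin2a and Grin2b in Set A, Gria3 below 0 in Set B, Grin2a and Grin2b in Set C, and Grin2a and Grin2c in Set D.

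Whether running acted differently in the 2 genotypes was tested by the interaction over all 16 libraries. For Grin2a the difference between the knockout and the wild-type response was 0.14 on the log2 scale, with a 95% interval of -0.23 to 0.51. For Grin2b it was -0.02, with an interval of -0.53 to 0.49. For Grin1, the member with the smallest p, it was 0.17 with an interval of -0.06 to 0.39 (limma, unadjusted p = 0.143, adjusted p = 0.797). The intervals leave room for differences as large as the responses themselves. When 1 library was left out, the Grin2a value ran from 0.03 to 0.25 and that of Grin2b from -0.16 to 0.11. None of the 10 members passed the test for the interaction, where 5.48% of all genes did in either direction and 0% had an adjusted p under 0.05 (0 of 17317, with 949 at an unadjusted p under 0.05). These 949 were 510 higher and 439 lower, against 609 and 306 with TPM as deposited and 414 and 539 with quantile normalization, and their number became 2381 when p16 WT CTL replicate 2 was left out, 619 when p16 WT CTL replicate 3 was, and 1975 when p16 KO CTL replicate 5 was. The members' median was 0.08 against 0.02 over all genes, with 6 of 10 above 0, as were 53.0% of all genes. Without the 3 libraries low in nuclear RNA the median was 0.04, and without p16 KO CTL replicate 8 too it was -0.05, with 3 of 10 above 0. Leaving out p16 KO CTL replicate 8 gave Grin1 an interaction of 0.24 that passed the test, and leaving out p16 KO CTL replicate 5 did so for Gria2 (0.28).

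Set B asks what the loss of p16 does in sedentary mice. Gria3 was lower in the knockout, and Grin2c was separate between the groups at a slightly higher level in the knockout. Of the 10 members, 1 passed the test as lower and 0 as higher. Among all genes 3.54% passed as lower, and 0% had an adjusted p under 0.05 (0 of 17317, with 1158 at an unadjusted p under 0.05). These 1158 were 545 higher and 613 lower, against 336 and 777 with TPM as deposited, and their number became 3029 when p16 WT CTL replicate 2 was left out, and 2332 or 557 when p16 KO CTL replicate 5 or 7 was. Of the members 3 of 10 were above 0, against 47.9% of all genes. The median of the members was -0.10 on the log2 scale, against -0.01 over all genes. Without the 3 libraries low in nuclear RNA the members' median was -0.04, and without p16 KO CTL replicate 8 too it was 0.01.

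Gria3 lies on the X chromosome (chrX:41401301-41678601) and all mice were male. Its level was 182, 164, 163 and 163 TPM in p16 WT CTL and 155, 143, 140 and 161 TPM in p16 KO CTL. Each knockout library was below each wild-type library, the nearest pair being 161 and 163 TPM. On the log2 scale Gria3 differed by -0.17 with a standard error of 0.07 (limma, unadjusted p = 0.0336, adjusted p = 0.625, exact permutation p = 0.0286). Among all genes, 1.25% had no overlap with the knockout lower, and 1 of 10 members did. The test was missed without p16 WT CTL replicate 1 (log2 -0.13) and without p16 KO CTL replicate 6 (-0.15) or 7 (-0.14), and without the 3 libraries low in nuclear RNA the difference was -0.10 (limma, unadjusted p = 0.219).

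Grin2c encodes GluN2C, whose receptors are only weakly blocked by magnesium. Its level was 31.5, 31.0, 32.0 and 31.8 TPM in p16 WT CTL, the tightest group of any member relative to its mean, and 33.6, 33.5, 36.4 and 32.5 TPM in p16 KO CTL. The groups did not overlap, which 1.46% of all genes did with the knockout higher and 1 of 10 members. On the log2 scale Grin2c differed by 0.10 with a standard error of 0.06, so it did not pass the limma test (unadjusted p = 0.112, adjusted p = 0.625), whereas the exact permutation test gave p = 0.0286. Gria2 was at 455, 364, 460 and 490 TPM in p16 WT CTL against the knockout values above, a log2 difference of -0.27 that did not pass the test (limma, unadjusted p = 0.0810). It passed without p16 WT CTL replicate 2 (-0.36) or p16 KO CTL replicate 5 (-0.38), and Grin1, at -0.11 with all libraries, passed without p16 KO CTL replicate 8 (-0.19). Without p16 KO CTL replicate 7 the difference of Gria2 was -0.18, without the 3 libraries low in nuclear RNA -0.19, and without replicate 8 too -0.02. Grin1 stood at -0.05 without p16 KO CTL replicate 6 and at 0.00 without the 3. The remaining members differed by -0.18 (Grin2a) to 0.15 (Grin3a), with no p under 0.05.

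Set D sets running knockout mice against sedentary wild-type mice, and shares a group with each of Sets A, B and C. Of the 10 members, 2 passed the test as higher, Grin2a and Grin2c, and 0 as lower. Among all genes 4.97% passed as higher and 3.66% as lower, and 0% had an adjusted p under 0.05 (0 of 17317, with 1495 at an unadjusted p under 0.05). The median of the members was 0.08 on the log2 scale, against 0.00 over all genes. Above 0 were 8 of 10 members and 51.4% of all genes. Grin2c was at 36.8, 37.2, 34.9 and 37.1 TPM in p16 KO RUN, above each of the p16 WT CTL values of 31.0 to 32.0 TPM. Its log2 difference was 0.21 with a standard error of 0.05 (limma, unadjusted p = 0.00200, adjusted p = 0.266, exact permutation p = 0.0286). Among all genes 3.27% had no overlap with the running knockout higher, and of the members 1 of 10. Grin2c passed the test in 8 of 8 fits that left out 1 library, and without p16 WT CTL replicate 2 its log2 difference was 0.20 (limma, unadjusted p = 0.00303). With levels of 31.1, 40.4, 35.4 and 36.0 TPM in p16 WT RUN, Grin2c overlapped both the sedentary wild-type and the running knockout group.

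Grin2a differed by 0.28 in Set D with a standard error of 0.11 (limma, unadjusted p = 0.0308, adjusted p = 0.520, exact permutation p = 0.0571). It missed the test without p16 WT CTL replicate 3 (0.26) and without p16 KO RUN replicate 13 (0.27), 14 (0.26) or 16 (0.28), and without p16 WT CTL replicate 2 it was 0.17 (limma, unadjusted p = 0.0396). Grin2b differed by 0.27 and did not pass (limma, unadjusted p = 0.0694). The AMPA genes lay within -0.03 to 0.03.

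Set E compares the genotypes in running mice, and here the members lay closest together. Their log2 differences ranged from -0.12 for Grin2b to 0.05 for Grin1, with a median of -0.01 against 0.00 over all genes. Above 0 were 5 of 10 members and 51.3% of all genes. Of all genes tested, 3.87% passed in either direction (671), and 0.00577% had an adjusted p under 0.05. Without p16 WT RUN replicate 12 the number that passed was 1048. None of the 10 members passed the test. The nearest was Gria2, at 478, 455, 473 and 453 TPM in p16 WT RUN and 465, 426, 429 and 412 TPM in p16 KO RUN, with a log2 difference of -0.10 (limma, unadjusted p = 0.0534, adjusted p = 1). Without p16 KO RUN replicate 13 it passed the test at -0.14. Grin2a differed by -0.04 with an interval of -0.20 to 0.13, and Gria1 by 0.01 with an interval of -0.08 to 0.10.

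With all libraries of each comparison, Gria4, Grin2d and Grin3a passed the test in none of the 5 sets nor for the interaction. Grin2d passed in 1 of 8 fits that left out 1 library in Set A and in 1 of 8 in Set D. Gria4 ranged from 30.9 TPM in p16 WT CTL replicate 3 to 42.4 TPM in p16 KO CTL replicate 8, the library of high CA1 markers. Grin2d ranged from 8.50 TPM in p16 KO CTL replicate 7 to 11.1 TPM in p16 WT RUN replicate 12, with group means of 9.46 ± 1.09, 9.31 ± 1.02, 10.3 ± 0.688 and 10.5 ± 0.556 TPM in sedentary wild-type, sedentary knockout, running wild-type and running knockout mice (SD, n = 4 each). Grin3a ranged from 11.2 TPM in p16 WT CTL replicate 1 to 18.6 TPM in p16 KO CTL replicate 5, and its group means lay between 13.5 and 14.9 TPM.

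The balance of the subunits is given per library without a test, as shares of the summed TPM of each family. Gria1 made up 54.5% of the AMPA gene sum over the 16 libraries, Gria2 30.9%, Gria3 11.9% and Gria4 2.64%. Grin1 made up 68.1% of the NMDA gene sum, Grin2a 13.4%, Grin2b 8.68%, Grin2c 5.81%, Grin3a 2.39% and Grin2d 1.66%. The share of Grin2a was 13.9%, 10.9%, 12.7% and 13.6% in p16 WT CTL and 14.4%, 15.2%, 14.9% and 14.0% in p16 WT RUN. In the knockout it was 13.8%, 13.3%, 10.5% and 10.9% in p16 KO CTL and 14.2%, 13.9%, 13.9% and 14.2% in p16 KO RUN. In both genotypes each running library lay above each sedentary library, in both by a narrow margin. The lowest shares were those of p16 KO CTL replicates 7 and 8 and p16 WT CTL replicate 2, of which 7 and 2 are low in nuclear RNA. The share of Grin1 was 67.8% to 72.2% in p16 WT CTL and 64.5% to 67.0% in p16 WT RUN, again without overlap, and 65.5% to 72.9% against 66.7% to 68.4% in the knockout groups, which overlapped.

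The ratio of Grin2a to Grin2b, which rises as synapses mature, had a mean of 1.55 and stayed between 1.34 and 1.74 in the 16 libraries. It was 1.59 ± 0.0646 in sedentary wild-type, 1.51 ± 0.108 in sedentary knockout, 1.52 ± 0.160 in running wild-type and 1.60 ± 0.107 in running knockout mice (SD, n = 4 each). The ranges of the 4 groups overlapped. Gria1 over Gria2 was 1.73 ± 0.155, 1.96 ± 0.248, 1.64 ± 0.0685 and 1.77 ± 0.129 in the same order. The sedentary knockout mean held 2.10 and 2.15 in replicates 6 and 7, which are low in nuclear RNA, 1.98 in replicate 8 and 1.60 in replicate 5. The AMPA gene sum was 1405 ± 90.7, 1264 ± 106, 1433 ± 19.9 and 1401 ± 34.6 TPM, and the NMDA gene sum 580 ± 37.1, 543 ± 50.1, 627 ± 53.1 and 634 ± 23.3 TPM. The 3 lowest AMPA sums (1132, 1247 and 1278 TPM) and the 3 lowest NMDA sums (499, 501 and 543 TPM) were those of the 3 libraries low in nuclear RNA. Their ratio lay at 2.31 to 2.54 in p16 WT CTL and at 2.16 to 2.24 in p16 KO RUN, without overlap, with p16 KO CTL (2.17 to 2.49) and p16 WT RUN (2.04 to 2.42) spanning both. The ratio depends on the length used. From the coverage per base it was 1.87 in p16 WT CTL and 1.69 in p16 KO RUN, with the same order of these 2 groups.

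**Figure D4:**
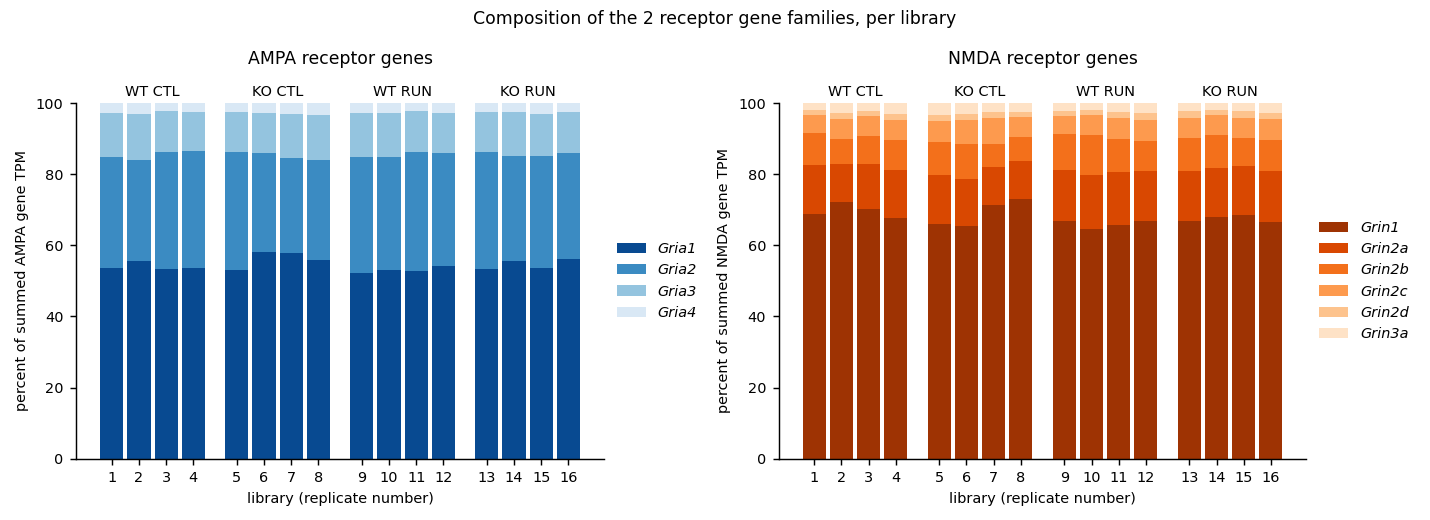
Share of each subunit gene in the summed scaled TPM of its family, in percent, as stacked bars, 1 bar per library in the order of the replicate numbers, with the AMPA genes on the left and the NMDA genes on the right. The Grin2a share is 14.0% to 15.2% in p16 WT RUN against 10.9% to 13.9% in p16 WT CTL.

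The members varied together across libraries only in part. Of the 45 pairs, 20 had a Pearson r over 0.5 and 8 were below 0, with a median of 0.42, over the same 16 libraries, which share depth, dissection and RNA quality. Grin2a and Grin2b were the closest pair, with r = 0.944. Over all genes whose mean reached 1 TPM, Lrp1, an endocytic receptor, was most like Grin2a (r = 0.950), followed by Grin2b and by Sorl1, a sorting receptor (0.940). Zfp652 (0.929) came after Grin2a for Grin2b. The genes most like Gria2 were Trrap (0.962), Med12 (0.961) and Huwe1 (0.960), and those most like Grin1 were Abca3 (0.962) and Ralgapa1 (0.921). Among the other members the highest values included 0.911 (Gria1 with Mir6998), 0.913 (Gria3 with Arel1), 0.889 (Grin2c with Igfbp6), 0.865 (Grin2d with Heatr5b) and 0.851 (Grin3a with Timp2). Each is the highest of 14438 genes and is given as a description.

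The genes that work with these receptors were read from 7 lists with 88 genes, of which 85 were tested. In Set A 10 of the 85 passed the test as higher and 5 as lower, shares near those of all genes at the scaling used, with a median log2 difference of 0.04. The counts were 18 and 2 with TPM as deposited, 15 and 4 with quantile normalization, 9 and 1 without a variance trend, and 6 to 13 and 1 to 5 when 1 library was left out. In Set C 4 passed as higher and 2 as lower, in Set D 6 and 3, in Set B 0 and 1, and in Set E and the interaction 0. Of all genes 2.69% passed as higher and 2.13% as lower in Set C, and 4.97% and 3.66% in Set D. In Set B 3.54% passed as lower, and in either direction 3.87% passed in Set E and 5.48% for the interaction. Without p16 WT CTL replicate 2 the counts of the 85 became 1 and 4 in Set B and 6 and 2 for the interaction. Leaving out p16 KO CTL replicate 8 gave 0 and 4 in Set B and 3 and 1 for the interaction. In Set E they reached at most 2 and 3 with 1 library left out. The same fits gave 2 to 4 as higher and 1 to 4 as lower in Set C, and 4 to 11 and 1 to 4 in Set D. The medians over the 85 were 0.01 in Set C, 0.03 in Set D, -0.02 in Set B, 0.03 in Set E and 0.04 for the interaction. Without the 3 libraries low in nuclear RNA, Set A had 6 as higher and 2 as lower, Set C 4 and 3, Set D 11 and 3, and Set B 0. Over all 17317 genes the number that passed in either direction went from 3196 to 1470 in Set A, from 833 to 1018 in Set C, from 1495 to 1934 in Set D and from 1158 to 1156 in Set B, where it ran from 557 to 3029 when 1 library was left out.

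Among the genes of AMPA receptor sorting and clustering, Nptx2 had the largest difference. It encodes a secreted neuronal pentraxin that gathers AMPA receptors at excitatory synapses on interneurons and is induced by activity. In wild-type mice its level was 12.3, 18.5, 19.5 and 12.2 TPM when sedentary and 25.3, 59.3, 28.5 and 39.8 TPM after running. In knockout mice it was 17.4, 14.7, 21.7 and 19.9 TPM when sedentary and 36.9, 62.3, 47.2 and 43.4 TPM after running. All 8 running libraries were above all 8 sedentary libraries. Nptx2 differed by 1.35 on the log2 scale in Set A (limma, unadjusted p = 2.11e-05, adjusted p = 0.0608), 1.24 in Set C (unadjusted p = 0.00129, adjusted p = 0.937) and 1.60 in Set D (unadjusted p = 2.43e-05, adjusted p = 0.0689). It passed the test in each fit that left out 1 library. Without the 3 libraries low in nuclear RNA it was 1.32, 1.33 and 1.69. Of the other 14 tested genes of this list, Pick1, a PDZ protein that binds GluA2, passed as higher in Set A (0.15) and as lower in Set B (-0.18). Without the 3 libraries Pick1 missed the test in both, at 0.08 and at -0.14, and without replicate 8 too it was 0.13 and -0.19. Pick1 missed it in 5 of 8 and 6 of 8 fits that left out 1 library.

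Of 17 genes for auxiliary subunits of AMPA receptors, Cnih3, a cornichon homologue that aids export and slows closing, was higher in running mice. It was at 74.1, 60.4, 101 and 94.0 TPM in p16 WT CTL and 92.7, 130, 108 and 148 TPM in p16 WT RUN, and at 97.2, 101, 82.1 and 58.2 TPM in p16 KO CTL and 107, 148, 104 and 155 TPM in p16 KO RUN. The groups overlapped in wild-type mice and not in the knockout. Such a separation with the running group higher held for 5.83% of all genes tested in Set A. The log2 difference of Cnih3 was 0.61 in Set A (limma, unadjusted p = 0.0122, adjusted p = 0.205) and 0.55 in Set C (unadjusted p = 0.0158, adjusted p = 0.985), and it passed in each fit that left out 1 library, down to 0.41 in Set C without p16 WT CTL replicate 2. The lowest level was in p16 KO CTL replicate 8, and the difference in Set A was 0.44 without it, 0.75 without the 3 libraries low in nuclear RNA (limma, unadjusted p = 0.0209) and 0.38 without all of these (limma, unadjusted p = 0.202). Shisa7 passed in Set A (0.38), but not without p16 KO CTL replicates 6 and 7 (0.13, limma, unadjusted p = 0.0844), nor when p16 KO CTL replicate 6 (0.35) or p16 KO RUN replicate 13 (0.35) or 15 (0.37) alone was left out. Prrt2, a synaptic membrane protein, passed as lower in Set C (-0.21) and Set D (-0.16), and missed the test in 4 of 8 and 5 of 8 fits that left out 1 library.

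Of 20 genes of NMDA receptor scaffold and signalling, 4 passed as higher and 1 as lower in Set A, where 10.7% and 7.74% of all genes did. Dlgap2, which links PSD-95 to Shank proteins, had a log2 difference of 0.29 (limma, unadjusted p = 0.00114, adjusted p = 0.130), with 50.6, 44.8, 45.0 and 48.0 TPM in p16 KO CTL and 55.2, 61.8, 57.7 and 55.7 TPM in p16 KO RUN. Ptpn5, the STEP phosphatase that promotes removal of GluN2B receptors, differed by 0.36 (unadjusted p = 0.00307, adjusted p = 0.158). In both genes the groups did not overlap, which held for 5.83% of all genes tested with the running group higher. Dlgap2 and Ptpn5 passed in each fit that left out 1 library and also without p16 KO CTL replicates 6 and 7. Without replicate 8 too Dlgap2 differed by 0.19. Dlgap2 (0.22) and Ptpn5 (0.28) passed in Set D as well. Nos1, the neuronal nitric oxide synthase that is tied to NMDA receptors through PSD-95 and is highest in certain interneurons, passed as lower in Set C (-0.32) and Set D (-0.57).

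Glia-linked genes were among those lower in Set A. Phgdh, the first enzyme of serine synthesis, which is enriched in astrocytes, differed by -0.39 (limma, unadjusted p = 0.00885, adjusted p = 0.192) and the neutral amino acid carrier Slc1a4 by -0.20. Slc1a3, an astrocyte glutamate transporter that is also 1 of the 8 astrocyte markers, differed by -0.34 and Glul, the glutamine synthetase of astrocytes, by -0.40. Slc1a3, Glul and Phgdh had their highest levels in p16 WT CTL replicate 2 and p16 KO CTL replicates 6 and 7, the libraries low in nuclear RNA, where the astrocyte markers summed to 1781 to 2192 TPM against 1299 to 1868 TPM elsewhere. Without those 3 libraries Slc1a3 (-0.11) and Glul (-0.15) did not pass the test, nor did Slc1a4 at a difference of -0.23, and Phgdh passed at a smaller difference of -0.17. Without p16 KO CTL replicate 8 too, 1 sedentary knockout library remained and Phgdh differed by -0.17. Slc1a3, Glul and Slc1a4 each missed the test in 4 of 8 fits that left out 1 library. Grin3b, the other GluN3 gene, was at a mean of 0.920 TPM over the 16 libraries and passed in Set A (0.64), but not without p16 KO CTL replicates 6 and 7, nor in 6 of 8 fits that left out 1 library. Slc1a5 passed as higher in Set C (0.58) and Set D (0.56), at a level near 1 TPM, and Ddo, which breaks down D-aspartate, in Set C (0.22), which 4 of 8 such fits did not keep. Slc1a5 missed the test in 6 of 8 fits that left out 1 library in each set.

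Of the 7 kainate and delta receptor genes, Grik5 passed as higher in Set A (0.17) and Set D (0.13) and Grid1 as lower in Set D (-0.14). Grik5 did not pass in Set A without p16 KO CTL replicates 6 and 7. When 1 library was left out, Grik5 missed the test in 3 of 8 fits of Set A and 4 of 8 of Set D, and Grid1 in 5 of 8. None of the 8 genes for RNA editing enzymes and splice regulators of receptor transcripts, among them Adarb1, the enzyme that edits the Gria2 pore codon shown above, passed the test in any of the 5 sets or the interaction, with list medians from -0.03 to 0.07 on the log2 scale.

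**Figure D5:**
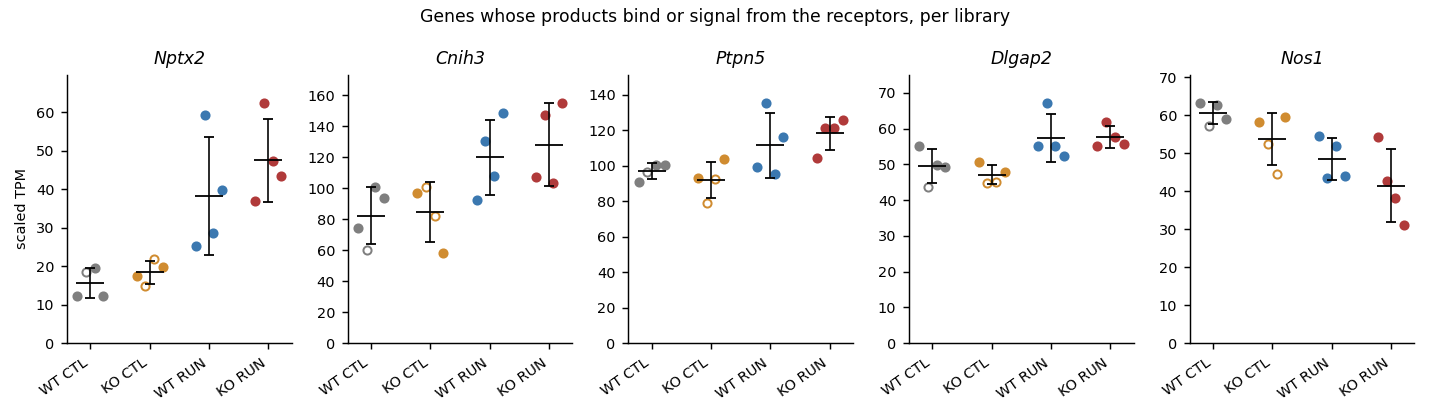
Scaled TPM of Nptx2, Cnih3, Ptpn5, Dlgap2 and Nos1, per library and group, with the mean ± SD of 4 libraries and open circles for the 3 sedentary libraries of lowest nuclear RNA. In the Nptx2 panel the 8 running libraries (25.3 to 62.3 TPM) lie above the 8 sedentary libraries (12.2 to 21.7 TPM).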

How the data were processed

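Total RNA of pooled dentate gyri was sequenced from the 16 libraries with a stranded mRNA kit. Per the labels and the methods, adapters were masked by the authors using cutadapt 1.11 and bases of low quality were removed using ERNE, after which they aligned reads to mm10 with STAR and computed gene abundances with StringTie; the submitters' processing notes also name bcl2fastq 2.20, HTSeq and DESeq2. The deposited TPM values are StringTie abundances per gene, corrected for length and scaled to the same total per library. The deposited FPKM values come from the same run and served, with coverage, for relative depth. The deposited coverage is the mean coverage per base of a gene. The ratio of coverage to FPKM, which grows with depth, was 5.42 to 16.8 over the libraries. Read counts were not used here.

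Entries of 1 gene name were summed, and libraries were scaled by the median ratio to their mean (13226 genes that reached 1 TPM throughout, factors 0.920 to 1.03). With limma 3.58.1 (R 4.3.3, empirical Bayes, variance trend) log2(scaled TPM + 0.1) was tested for genes whose mean TPM reached 0.1, two-sided, on the 8 libraries of each set or all 16 for the interaction, with Benjamini-Hochberg adjustment over 17317 genes. A log2 difference of a low gene is understated by the pseudocount. Single genes were also compared by the two-sided exact permutation test, and the limma script was tested on simulated data. All members were named, with up to 3 genes of smallest p per companion list and comparison past the threshold, and the most correlated genes of each member; some genes are not reported here. Genes outside this rule were named as markers. The members, lists and tests were chosen with earlier results of these data known. Sequences were read from GENCODE vM21 transcripts, and identities from alignments of their translations with BLOSUM62. Alternatives were other filters, pseudocounts, scalings, fits and left-out libraries; leaving out the 3 libraries low in nuclear RNA, and p16 KO CTL replicate 8, was chosen after seeing the data.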

Additional observations from a re-analysis of the deposited data

Results flagged for a closer look

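In groups of 4, a library was set apart where its gap to the nearest other library, as a share of the range of its group, was above the 95% critical value of Dixon's test. This held for 11 of 172 groups of values, and chance gives about 1 in 20.

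Gria3 was set apart in p16 WT CTL, where replicate 1 had 182 TPM and the others 163 to 164 TPM, and in p16 KO RUN, where replicate 14 had 177 TPM and the others 160 to 161 TPM. Grin1 had 433 TPM in p16 WT CTL replicate 1 against 392 to 397 TPM. Grin2c had 34.9 TPM in p16 KO RUN replicate 15, below 36.8 to 37.2 TPM in the others and above each p16 WT CTL library. Grin2d had 11.1 TPM in p16 WT CTL replicate 4 against 8.83 to 9.00 TPM.

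The share of Gria1 in the AMPA gene sum was 55.7% in p16 WT CTL replicate 2 against 53.5% to 53.6% in its group. The same library, which is low in nuclear RNA, was set apart for the astrocyte genes Slc1a3 (605 TPM against 462 to 475 TPM) and Glul (2210 TPM against 1573 to 1667 TPM). Pick1 had 51.0 TPM in p16 WT RUN replicate 9 against 55.9 to 56.7 TPM, Shisa7 had 123 TPM in p16 WT RUN replicate 11 against 113 to 115 TPM, and Slc1a5 had 0.848 TPM in p16 WT CTL replicate 4 against 0.542 to 0.593 TPM.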

How the results depend on the processing

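None of the 8 differences of members that passed the test, nor of the 29 named companion differences that did, changed its direction under an alternative run, while 30 of the 60 member differences did under at least 1, each of them short of the test with all libraries. The number of members at an unadjusted p under 0.05 did move. In Set A it was 3, and became 7 with TPM as deposited (Gria1, Gria2, Gria3 and Grin2c were added), 5 with quantile normalization, 1 without a variance trend, 5 with all 16 libraries in one fit, and 1 to 5 when 1 library was left out. It was 1 without p16 KO CTL replicates 6 and 7 and 0 without replicate 8 too. In Set B it was 1, and became 2 with no filter, 0 without a variance trend, 2 with all 16 libraries in one fit and 0 to 2 when 1 library was left out, and it was 0 without the 3 libraries low in nuclear RNA, with or without replicate 8. In Set C it was 2, and became 0 with no filter, 0 without a variance trend, 0 to 2 with 1 library left out and 0 without replicate 2 of p16 WT CTL. For Set D it was 2, and became 1 without a variance trend and 1 to 3 with 1 library left out. In Set E it was 0, and became 1 with no filter and 0 to 1 with 1 library left out. For the interaction it was 0 and became 0 to 1. The cause was not tested. The filter at a mean of 1 TPM and both pseudocounts left these counts within 1.5 times. Grin2a in Set A passed in 8 of 8 fits with another filter, pseudocount, scaling, trend or set of libraries in the fit, as did Grin2c in Set D. The fit of Set A called 3196 genes at an unadjusted p under 0.05, and 2063 without p16 KO CTL replicate 6, 2023 without replicate 7, 1470 without both, and 4738 without replicate 5, where 178 had an adjusted p under 0.05 against 3 with all libraries. No paired analysis was possible because each replicate number occurs in 1 group only. Read counts per gene are not known from these values, and a difference that missed the test may lie below what 4 libraries a group can show.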
